A study of Mus musculus and Rattus norvegicus with 35 samples.

Results

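The genes described here were grouped as secreted and neuroprotective effectors that neuronal activity induces: Bdnf, Inhba, Serpinb2, Ptgs2, Vgf, Scg2, Nptx2, Pcsk1, Penk and Cyr61. They were chosen by symbol, with earlier results of these data known. All 10 had a row in the mouse table of 24601 genes and in the rat table of 22409 genes. No circular RNA (circRNA) in the deposited tables named one of them as its host gene, among 26804 mouse and 16549 rat circRNAs with a host symbol. The results therefore concern gene expression, given as TPM, a level scaled to transcript length and to the library total.

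Synaptic activity raises calcium in the nucleus of a neuron, which switches on transcription factors such as CREB and Npas4 and, through them, a later set of genes for secreted signals. Bdnf is a neurotrophin that acts on the TrkB receptor, Inhba encodes the subunit of activin A, and Nptx2 (neuronal pentraxin 2, also called Narp) gathers AMPA receptors at synapses. Vgf and Scg2 (secretogranin II) are precursor proteins of dense-core granules, Penk is the enkephalin precursor, and Pcsk1 is a prohormone convertase that cuts such precursors. Ptgs2 (COX-2) makes prostaglandin precursors, Serpinb2 inhibits plasminogen activators, and Cyr61 (also named Ccn1) is a matrix-associated protein of the CCN family. Inhba and Serpinb2 are also known in hippocampal neurons as activity-regulated genes that protect against cell death.

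The series held 34 libraries with deposited values. Cultured hippocampal neurons of Sprague Dawley rats at DIV 28 (days in vitro) had been kept for 12 h in 40 µM bicuculline, or given water as a control (2 libraries of either). Bicuculline blocks GABA-A receptors and so removes inhibition. Hippocampus of C57BL/6 mice was sampled at E18, P1, P10 and P30, with 2 libraries an age. Brain, heart, liver, lung and testis of C57BL/6 mice had 3 libraries a tissue, 1 at 14 weeks and 2 at 20 weeks. Synaptosomes and homogenate of hippocampus and CA1 neuropil and somata came from mice of 4 weeks, and CA1 neuropil and somata also from rats of 4 weeks, with 1 library each. A poly(A)-selected library of 14-week brain stood beside an rRNA-depleted one, which the labels number as another replicate, and all other libraries were rRNA-depleted. The labels do not say whether replicates were separate animals or cultures, so p-values measure only the spread between these libraries.

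The libraries had 11728 to 15605 genes at 1 TPM or more in mouse and 13007 to 13971 in rat. TPM keep no read depth, so the depth behind each value is unknown. Neuron markers summed to 2313 to 2814 TPM in the brain libraries and to at most 9.58 TPM in any library of heart, liver, lung or testis. Of the 5 neuron markers, Map2 had no row in the mouse table and Tubb3 was listed at 0 in every library, so these sums rest on Snap25, Syt1 and Rbfox3. The marker lists of liver, heart, lung and testis had all 5 members at 1 TPM or more in each library of their own tissue. All 5 liver and all 5 heart markers also reached 1 TPM in at least 1 brain library, with sums over the brain libraries of 1.50 to 37.3 TPM for liver markers and 4.35 to 42.6 TPM for heart markers. In their own tissues the sums were 54374 to 85262 TPM and 59964 to 66319 TPM. The part of such signal in low values of a tissue was not tested.

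Promoter windows from 250 bases before to 50 bases after a transcription start were matched in RefSeq (GRCm38.p6) for 7 of the 10 genes, 14 windows in all. They are mouse sequences, whereas the bicuculline cultures were rat. Both strands were searched for 5 motifs. They were TGACGTCA, the cAMP response element to which CREB binds, with its part CGTCA, the AP-1 sequence TGANTCA, the CArG box, which serum response factor binds, and the TATA box as TATAAA. The motifs were chosen after the values were seen. Scg2 (chr1:79439977-79440276, minus strand) and Pcsk1 (chr13:75089607-75089906, plus strand) each held TGACGTCA, beginning 68 and 78 bases before the start, whose letters hold CGTCA on each strand, and Pcsk1 held another CGTCA 50 bases before it. CGTCA was also found in the windows of Cyr61 (chr3:145649936-145650235, minus strand) 58 bases before the start and of Ptgs2 (chr1:150099781-150100080, plus strand) from base 14 after it. Of the 7 windows of Bdnf, 1 held it (chr2:109692186-109692485, plus strand), 35 bases before the start. The 5 windows are shown because they hold these letters, which are in capitals (TGACG is CGTCA on the other strand).
Scg2: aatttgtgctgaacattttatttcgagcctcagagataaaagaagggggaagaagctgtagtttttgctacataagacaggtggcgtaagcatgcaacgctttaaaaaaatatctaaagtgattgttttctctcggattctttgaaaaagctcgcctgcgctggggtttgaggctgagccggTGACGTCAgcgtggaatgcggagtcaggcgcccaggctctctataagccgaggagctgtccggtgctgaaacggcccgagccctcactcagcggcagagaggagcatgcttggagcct
Pcsk1: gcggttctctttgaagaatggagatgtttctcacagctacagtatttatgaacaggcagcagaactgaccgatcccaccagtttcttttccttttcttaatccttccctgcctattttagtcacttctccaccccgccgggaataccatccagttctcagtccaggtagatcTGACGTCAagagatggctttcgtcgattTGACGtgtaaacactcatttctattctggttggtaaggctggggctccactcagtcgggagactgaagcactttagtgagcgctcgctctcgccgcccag
Cyr61: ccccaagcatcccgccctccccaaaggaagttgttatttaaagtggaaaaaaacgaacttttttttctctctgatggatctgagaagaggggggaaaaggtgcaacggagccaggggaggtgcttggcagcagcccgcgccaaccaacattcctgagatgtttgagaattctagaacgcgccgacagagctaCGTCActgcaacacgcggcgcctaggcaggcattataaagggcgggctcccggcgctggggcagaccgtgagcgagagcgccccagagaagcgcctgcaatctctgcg
Ptgs2: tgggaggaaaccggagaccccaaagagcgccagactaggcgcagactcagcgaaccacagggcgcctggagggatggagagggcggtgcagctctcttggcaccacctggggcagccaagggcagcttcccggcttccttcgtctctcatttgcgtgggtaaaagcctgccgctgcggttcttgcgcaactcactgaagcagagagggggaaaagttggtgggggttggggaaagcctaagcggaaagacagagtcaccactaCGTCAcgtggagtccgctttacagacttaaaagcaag
Bdnf: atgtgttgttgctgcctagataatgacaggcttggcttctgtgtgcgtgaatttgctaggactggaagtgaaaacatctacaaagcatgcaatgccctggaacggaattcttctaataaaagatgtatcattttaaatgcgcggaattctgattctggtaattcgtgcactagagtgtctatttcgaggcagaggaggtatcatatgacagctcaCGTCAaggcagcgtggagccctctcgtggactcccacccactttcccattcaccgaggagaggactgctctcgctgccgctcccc
Of all 32851 windows of this length, 1.79% held TGACGTCA and 20.8% held CGTCA on either strand. The member windows with a match numbered 2 of 14 and 5 of 14. The single window of Inhba and both overlapping windows of Serpinb2 had neither motif. TGANTCA was in 3 of 14 windows, both of Serpinb2 and another of Bdnf, and in 7.81% of all windows. In these 3 windows the match read TGAATCA, without the C or G of the AP-1 sequence. TATAAA was in 4 of 14 windows, those of Inhba, Serpinb2 and Cyr61, and in 13.6% of all windows, and the CArG box was in 0 of 14, against 1.63%. Windows for Vgf, Nptx2 and Penk were not used here. These matches describe the letters in the windows and not binding.

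Bicuculline raised 9 of the 10 genes in the rat cultures at an adjusted p under 0.05 (limma on log2 of TPM plus 1), and 0 fell, also at an unadjusted p under 0.05. The fold is on the scale of log2 of TPM plus 1, which understates the change of genes at low levels. Of all 13341 genes tested, 2.06% rose and 0.51% fell. Since the set was chosen with earlier results of these data known, this contrast is not an independent test. The members' log2 differences had a median of 3.44, against -0.07 over all genes tested. Inhba, Serpinb2 and Cyr61 passed the filter on low values only through the bicuculline libraries, so they could pass only by being higher there. Of the 7 genes that passed it also on the control libraries, 6 rose, with a median difference of 3.08.

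Bdnf, the neurotrophin, had 487 and 405 TPM in the bicuculline libraries, against 34.0 and 31.6 TPM in the control libraries. Both bicuculline values were far above both control values, a log2 difference of 3.72 ± 0.14 (SE, adjusted p = 0.00309), the 15th largest of the 13341. Inhba, the activin subunit, had 721 and 410 TPM with bicuculline and 3.05 and 0.549 TPM in controls. Both control values were low, 1 of them below 1 TPM, and the log2 difference of 7.76 ± 0.51 (adjusted p = 0.00674) ranked 2nd. Nptx2, the synaptic pentraxin, had 329 and 293 TPM with bicuculline, against 22.2 and 31.1 TPM in controls. Its libraries did not overlap between the groups, and the log2 difference was 3.51 ± 0.19 (adjusted p = 0.00482).

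Serpinb2, the protease inhibitor, had 856 and 259 TPM in bicuculline libraries and 0.505 and 0.214 TPM in control libraries. It showed the largest difference of all genes tested, 8.45 ± 0.55 on the log2 scale (adjusted p = 0.00674), while its bicuculline values lay far apart. Ptgs2, the inducible cyclooxygenase, had 516 and 202 TPM with bicuculline, against 45.0 and 30.9 TPM in controls. The groups did not overlap, with a log2 difference of 3.08 ± 0.46 (adjusted p = 0.0395), yet with no filter on low values the adjusted p was 0.119. Cyr61, the CCN protein, had 151 and 73.2 TPM with bicuculline and 0.418 and 1.59 TPM in controls. Its log2 difference of 5.79 ± 0.44 ranked 5th (adjusted p = 0.00795), with an adjusted p of 0.0508 when no filter was used. In these 3 genes, as in Inhba, the first bicuculline library was the higher of the pair, as it was for all of the 10 but Vgf and Penk.

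Among the granule proteins and peptides, Scg2 reached the highest level of the set, 3416 and 2412 TPM in bicuculline libraries, against 378 and 442 TPM in control libraries. It was also the most abundant of the 10 in controls, so its log2 difference of 2.81 ± 0.20 (adjusted p = 0.00674) came on a high base. Penk, the enkephalin precursor, had 336 and 357 TPM with bicuculline and 28.2 and 38.1 TPM in controls. Its bicuculline libraries were close to each other, and the log2 difference was 3.36 ± 0.17 (adjusted p = 0.00452). Pcsk1, the convertase, had 79.1 and 64.7 TPM with bicuculline, against 13.0 and 15.6 TPM in controls. All its bicuculline values exceeded its control values, by a log2 difference of 2.25 ± 0.18 (adjusted p = 0.00865).

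Vgf did not pass, with 63.6 and 119 TPM in bicuculline libraries and 29.5 and 53.5 TPM in control libraries. Both bicuculline values were higher than both control values, but the spread within each group was wide, and the log2 difference was 1.11 ± 0.39 (adjusted p = 0.210). With the replicate number as a block, limma called all 10 genes higher, Vgf among them. Of all genes, 1493 were then higher and 1805 lower, and no label pairs the libraries. All 10 genes had non-overlapping groups with bicuculline higher, which held for 20.9% of all genes tested, and 0 had bicuculline lower in this way (30.5% of all genes). Differences of 3 or more on the log2 scale were reached by 7 of the 10 genes and by 0.315% of all genes. The counts of 10 and 7 include Inhba, Serpinb2 and Cyr61, which passed the filter only through the bicuculline libraries. The others at 3 or more were Bdnf, Nptx2, Penk and Ptgs2.

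**Figure D1:**
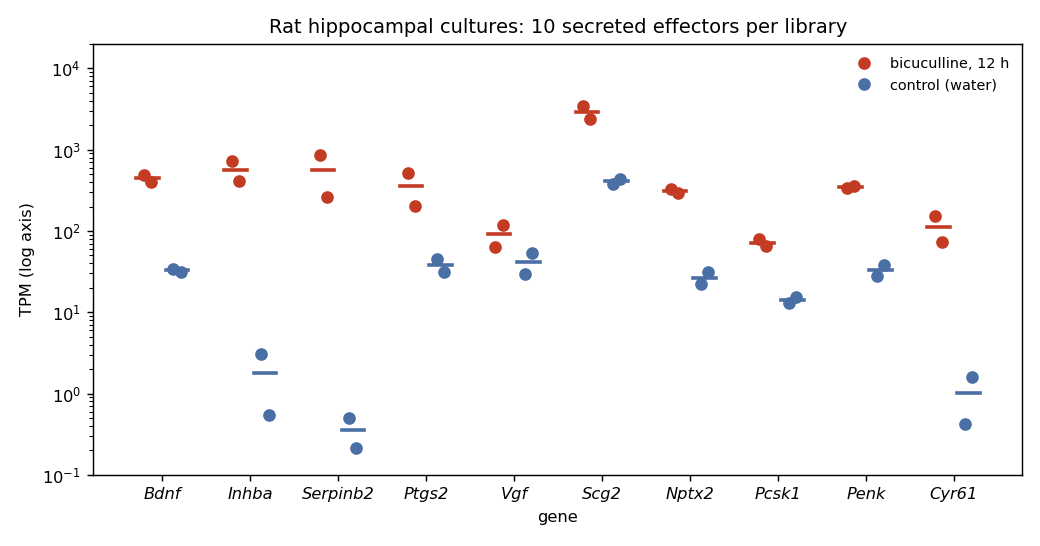
TPM of each gene on a log axis in the 2 bicuculline (left) and 2 control (right) libraries of rat hippocampal cultures, with points for libraries and bars for means. Serpinb2, Inhba and Cyr61 were near or below 3 TPM in controls and at 73.2 TPM or more with bicuculline, whereas the groups of Vgf nearly meet.

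**Figure D2:**
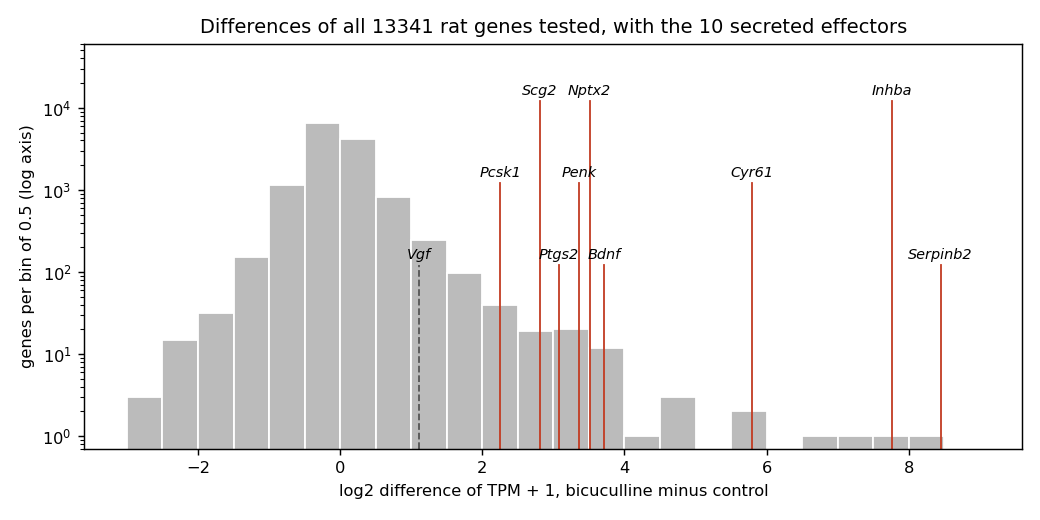
Number of genes (log axis) by log2 difference of TPM plus 1, bicuculline minus control, in bins of 0.5 for all 13341 genes tested, with a line for each of the 10 genes (dashed where the test was not passed). Serpinb2 and Inhba stand at the far right end at 8.45 and 7.76, and Vgf at 1.11 lies within the shoulder of the distribution.

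The calls rested on both bicuculline libraries. Without bicuculline replicate 1 or without replicate 2, limma called 0 of the 10 genes and 0 of all genes in either direction. At an unadjusted p under 0.05, 10 and 9 of the members passed in those fits, with 771 and 851 of all genes higher and 535 and 975 lower. In these fits the lone bicuculline library is assumed to vary like the controls. Without either control library, 9 of the 10 genes still passed.

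Of the markers of neurons, interneurons, astrocytes, oligodendrocytes, microglia, endothelium and fibroblasts, limma called 1 gene in the cultures, the fibroblast gene Dcn, higher with bicuculline (1.37 ± 0.16, adjusted p = 0.0223). The list of fibroblast and choroid plexus markers summed to 79.8 to 91.5 TPM with bicuculline and 41.2 to 78.6 TPM in controls, and its part in the members' differences was not tested. Neuron markers summed to 2867 to 2996 TPM with bicuculline and 2748 to 3377 TPM in controls, with all 5 at 1 TPM or more. At an unadjusted p under 0.05, 0 of these 5 were higher and 2 lower, against 1239 and 1397 of all genes tested. Rbfox3 had means of 22.6 TPM with bicuculline and 36.3 TPM in controls, and Tubb3 of 244 and 383 TPM. Of the 5 interneuron markers, 1 was higher in this way and 0 lower. Astrocyte markers summed to 6049 to 6899 TPM with bicuculline and 6007 to 9798 TPM in controls. Microglial markers summed to 0.126 to 38.7 TPM with bicuculline and 0.148 to 42.1 TPM in controls, and each group had a library near 0. In bulk RNA, fewer cells of a type and less RNA per cell cannot be told apart.

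The partners of these genes were mostly not called. In limma 0 of 5 tested genes of the neurotrophin list passed in either direction, with 1 lower at an unadjusted p under 0.05. The TrkB receptor gene Ntrk2, named after its values were seen as the receptor of Bdnf, had means of 186 TPM with bicuculline and 153 TPM in controls. Of 9 activin and inhibin genes 0 passed, with 2 lower at an unadjusted p under 0.05. Of 6 genes of plasminogen activators and serpins 0 passed (2 higher unadjusted), of 8 genes of prostanoid synthesis and receptors 0 passed (2 higher unadjusted), and of 4 genes of the CCN and integrin list 0 passed (0 unadjusted).

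Among 18 granule and peptide-processing genes, 4 rose and 0 fell in limma (6 higher and 1 lower at an unadjusted p under 0.05), with a list median of 0.37 against -0.07 over all genes tested. Adcyap1, the PACAP precursor, rose by a log2 difference of 3.77 ± 0.27 (adjusted p = 0.00674), with means of 179 TPM under bicuculline and 12.3 TPM in controls. Pam, which amidates peptides, rose by 1.44 ± 0.11 (adjusted p = 0.00779), and the neurotensin gene Nts by 2.34 ± 0.34 (adjusted p = 0.0394). Of 5 genes of the pentraxin list only C1ql2, a secreted synaptic C1q-like protein, rose (1.88 ± 0.16, adjusted p = 0.0106). Of 6 opioid genes only Oprl1, the nociceptin receptor, was called, and it fell by 1.49 on the log2 scale (SE 0.24, adjusted p = 0.0464), with means of 10.7 TPM under bicuculline and 31.2 TPM in controls.

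Of 12 activity-regulated genes used as a check, mostly transcription factors, 9 rose and 0 fell, in limma and also at an unadjusted p under 0.05. This list too was chosen with earlier results of these data known. Egr1, Egr2 and Egr3 were not called, with log2 differences of 0.10 ± 0.41, -0.06 ± 0.30 and 0.28 ± 0.40. Fosb and Fos rose by log2 differences of 4.97 ± 0.22 (adjusted p = 0.00321) and 5.71 ± 0.29 (adjusted p = 0.00452), and Dusp1, a phosphatase that ends MAP kinase signals, by 3.08 ± 0.17 (adjusted p = 0.00508).

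Reads from overlapping genes could not be told apart, since no source used here says whether the counting used strand. In the mouse annotation (GENCODE vM21), Bdnf, Inhba and Penk each overlap a gene on the opposite strand, and Serpinb2 overlaps Serpinb10 on the same strand.

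During hippocampal development most of the set was higher with age, mainly from P10 on. At P30 against E18, 8 of 9 tested genes were higher (29.5% of 15444 genes tested were) and 0 lower (26.8%), with 1 lower at an unadjusted p under 0.05. When library medians were made equal, 7 were higher and 1 lower, where 4002 of the 15444 genes were higher and 5246 lower. The median log2 difference of the 9, as deposited, was 2.33, against 0.01 over all genes. At P30 the libraries of these 8 genes lay above those of E18 without overlap, as for 40.3% of all genes, and those of Cyr61 lay below, as for 39.3%. Ptgs2 passed the filter only through the P10 and P30 libraries. Serpinb2 was at 0.131 TPM or less in all 8 libraries and was not tested.

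**Figure D3:**
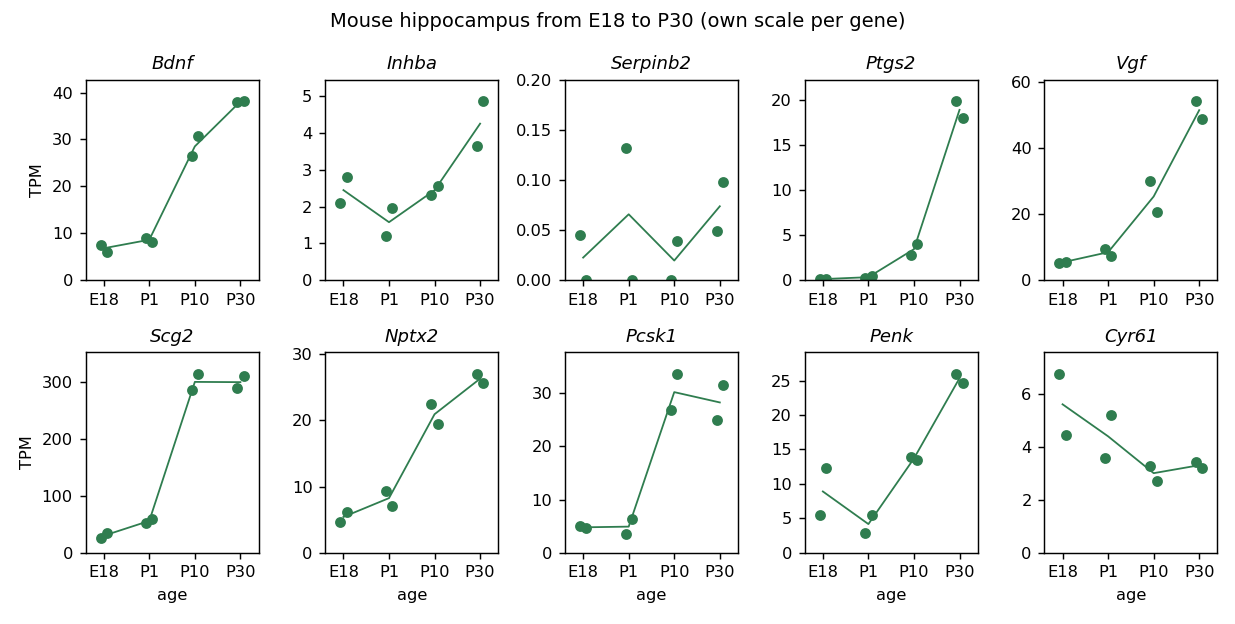
TPM in the 2 mouse hippocampal libraries at each age from E18 to P30 (points) with a line through the means, on an own scale per gene. Scg2 and Pcsk1 level off after P10, Ptgs2 climbs mainly after P10, and Serpinb2 stays at or below 0.131 TPM.

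Scg2 had 25.6 and 34.3 TPM at E18, 52.6 and 59.2 at P1, 285 and 314 at P10, and 289 and 309 at P30. The steps into P1 and P10 did not overlap, while the P10 and P30 libraries did. Its log2 difference was 0.89 ± 0.16 at P1 against E18 (adjusted p = 0.0320), the only member call of that step, where 1.20% of genes were higher and 0.524% lower. In that step 5 members had non-overlapping libraries with P1 higher (23.6% of genes) and 2, Inhba and Penk, with P1 lower (17.6%). The call of Scg2 was lost with no filter (adjusted p = 0.0827) and whichever single library was left out (0.0596 to 0.164). At P10 against P1 Scg2 rose by 2.40 ± 0.16 (adjusted p = 2.48e-05), and at P30 against P10 the difference was 0.00 ± 0.16 (adjusted p = 0.997).

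Pcsk1 followed a like course, with 4.98 and 4.58 TPM at E18, 3.56 and 6.26 at P1, 26.7 and 33.6 at P10, and 25.0 and 31.5 at P30. Its P10 and P30 libraries overlapped, and the P10 step was 2.43 ± 0.24 on the log2 scale (adjusted p = 0.000145). Bdnf had 7.59 and 6.01 TPM at E18, 9.06 and 8.17 at P1, 26.4 and 30.7 at P10, and 38.1 and 38.2 at P30. The ages of Bdnf did not overlap, and its step at P10 was 1.62 ± 0.17 (adjusted p = 0.000199). Nptx2 had 4.61 and 6.22 TPM at E18, 9.37 and 7.13 at P1, 22.4 and 19.5 at P10, and 27.0 and 25.6 at P30. It rose at P10 by 1.25 ± 0.20 (adjusted p = 0.00158), and its ages did not overlap.

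In all, 7 of 9 members rose at P10 against P1, where 17.2% of genes did and 18.0% fell, and 7 members passed whichever single library was left out. Inhba and Cyr61 did not pass, at 0.43 ± 0.23 (adjusted p = 0.164) and -0.42 ± 0.24 (adjusted p = 0.194). Libraries of 8 members lay above P1 at P10 without overlap (31.2% of genes) and those of 1, Cyr61, below (37.6%).

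Ptgs2 was the late member, with 0.121 and 0.112 TPM at E18, 0.230 and 0.431 at P1, 2.84 and 4.04 at P10, and 19.9 and 17.9 at P30. It was below 1 TPM in all libraries up to P1, and its log2 difference at P30 against E18 was 4.15 ± 0.21 (adjusted p = 4.85e-07), the largest of the set and the 93rd of all genes. At P30 against P10, Ptgs2 rose by 2.18 ± 0.21 (adjusted p = 0.000150). Vgf had 5.15 and 5.65 TPM at E18, 9.56 and 7.37 at P1, 30.1 and 20.6 at P10, and 54.2 and 48.8 at P30. It rose at both later steps, by 1.46 ± 0.21 (adjusted p = 0.00100) and 1.02 ± 0.21 (adjusted p = 0.00702). The last step of Vgf was lost without P30 replicate 1 (adjusted p = 0.0550) or P10 replicate 2 (0.0581). Ptgs2 and Vgf were the 2 members called at P30 against P10, where 17.0% of genes rose and 12.5% fell. There 6 members had libraries above P10 without overlap (39.5% of genes) and 0 below (31.5%).

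Penk had 5.56 and 12.3 TPM at E18, 2.81 and 5.53 at P1, 13.9 and 13.5 at P10, and 26.0 and 24.7 at P30. Its P1 libraries were the lowest, and the log2 difference at P30 against E18 was 1.50 ± 0.33 (adjusted p = 0.00397). Inhba stayed low, with 2.09 and 2.81 TPM at E18, 1.19 and 1.96 at P1, 2.32 and 2.57 at P10, and 3.65 and 4.87 at P30. The highest values of Inhba were at P30, but its log2 difference of 0.61 ± 0.23 against E18 passed narrowly (adjusted p = 0.0453) and was lost under a pseudocount of 0.1 TPM (adjusted p = 0.0690), no filter (0.0772), equal medians (0.0942) and when a single E18, P10 or P30 library was left out (0.0532 to 0.239).

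Cyr61 ran the other way, with 6.76 and 4.46 TPM at E18, 3.59 and 5.21 at P1, 3.29 and 2.73 at P10, and 3.42 and 3.19 at P30. Both E18 values were above both P30 values, but the log2 difference of -0.60 ± 0.24 did not pass (adjusted p = 0.0547). It passed when library medians were made equal, as -0.74 (adjusted p = 0.0207), and without P1 replicate 1 (0.0400), P1 replicate 2 (0.0401) or E18 replicate 2 (0.0299).

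Marker sums differed with age too. Neuron markers averaged 2787 TPM in sum at P30 and 341 TPM at E18, a ratio of 8.17. Oligodendrocyte markers had 7629 TPM at P30 and 38.6 TPM at E18, and astrocyte markers 1001 and 336 TPM. Endothelial and mural markers had 202 TPM at P30 and 262 TPM at E18. The part of these shifts in the members' differences was not tested.

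Related genes are read against the 29.5% of all genes higher and 26.8% lower at P30. Of 18 granule and processing genes, 15 were higher and 1 lower at P30 against E18, with a median of 1.26 against 0.01 over all genes. Vip, a peptide of interneurons, rose by 4.57 ± 0.21 (adjusted p = 3.54e-07) and Cpe, the carboxypeptidase that trims peptides after cleavage, by 2.71 ± 0.14 (adjusted p = 6.66e-07), whereas Nts fell by 3.95 (SE 0.21, adjusted p = 7.04e-07). Of 6 neurotrophin genes, 3 rose and 1 fell. Sort1, a sorting receptor for Bdnf, rose by 2.14 ± 0.15 (adjusted p = 3.89e-06) and Ntrk2 by 1.86 ± 0.22 (adjusted p = 9.09e-05), with mean levels for Ntrk2 of 167 TPM at P30 and 46.8 TPM at E18.

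Of 11 activin genes, 3 were higher and 5 lower at P30, against 2 and 6 with equal medians. Inhbb, which encodes another activin subunit, fell by 1.15 (SE 0.20, adjusted p = 0.000979). The receptor Acvr1c rose by 2.11 ± 0.21 (adjusted p = 2.96e-05), and Smad2, a signal carrier, fell by 1.17 (SE 0.15, adjusted p = 0.000116). Of 5 pentraxin genes 3 rose, led by C1ql3 at 4.26 ± 0.18 (adjusted p = 2.18e-07). Opioid genes had 4 of 7 higher, prostanoid genes 4 of 10 higher and 2 lower, plasminogen genes 3 of 7 higher and 1 lower, and CCN genes 4 of 5 higher. The shares of the prostanoid and plasminogen lists that were called lay near that of all genes. Of 11 activity genes tested, 9 were higher at P30, among them Arc (5.11 ± 0.18, adjusted p = 1.12e-07).

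Across adult tissues the granule proteins were brain genes, while Cyr61 was a lung and heart gene. The level in brain against the mean of heart, liver, lung and testis was higher for 8 of 10 genes (45.4% of 18966 genes tested were) and lower for 1 (28.0%). In 6 of the 10 genes each brain library was above each other library, as in 18.6% of all genes, and in 0 was it below, as in 1.48%. With equal library medians, 6 were higher and 2 lower, where 4594 of the 18966 genes were higher and 9342 lower. The median log2 difference of the 10 was 3.48, against 0.34 over all genes. Vgf and Scg2 passed the filter only through brain, so they could pass only by being higher there. Both are in the median of 3.48 and among the 6 genes with each brain library above each other library. Of the other 8 genes 6 were higher and 1 lower, with a median difference of 2.29. Any difference among the 5 tissues (limma's F test) was called for all 10 genes and for 97.1% of all genes.

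**Figure D4:**
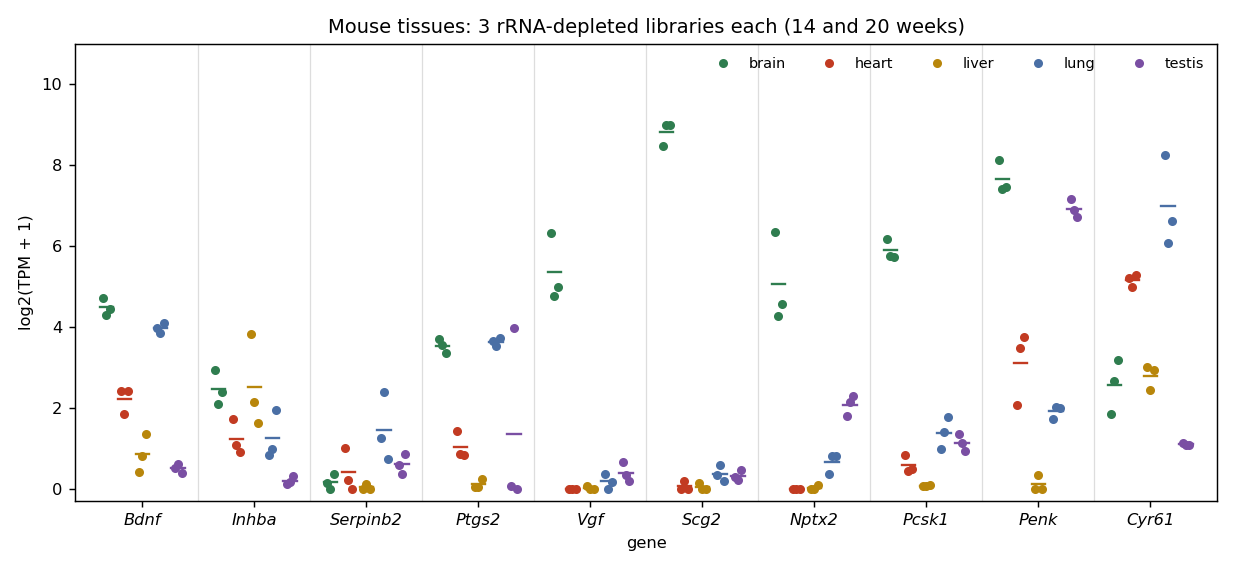
log2 of TPM plus 1 in 3 rRNA-depleted libraries of each of 5 mouse tissues (points, the 14-week library leftmost) with bars for means, colours marking tissues. Scg2, Vgf, Nptx2 and Pcsk1 are high in brain alone, Penk is also high in testis, and Cyr61 is highest in lung.

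Scg2 had 357 TPM in 14-week brain and 512 and 507 TPM in 20-week brain, against at most 0.513 TPM in any other library. Its log2 difference of 8.62 ± 0.14 was the 6th largest of all genes (adjusted p = 1.37e-14). Vgf had 79.2 TPM in 14-week brain and 26.1 and 30.8 TPM in 20-week brain, against at most 0.592 TPM elsewhere, with all 3 heart libraries listed at 0. The brain libraries of Vgf stood apart from the others, by 5.21 ± 0.24 (adjusted p = 1.65e-10). Pcsk1 had 71.9 TPM in 14-week brain and 53.0 and 52.2 TPM in 20-week brain, and at most 2.43 TPM elsewhere. Next to brain, lung and testis overlapped in Pcsk1, at means of 1.69 and 1.22 TPM, and brain differed by 5.09 ± 0.17 (adjusted p = 5.87e-12).

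Nptx2 had 80.5 TPM in 14-week brain and 18.4 and 22.8 TPM in 20-week brain. Testis was next at 2.50, 3.39 and 3.92 TPM, without overlap, and lung averaged 0.597 TPM. The brain difference of 4.37 ± 0.31 (adjusted p = 1.63e-08) was 5.80 at 14 weeks and 3.66 at 20 weeks. Penk had 281 TPM in 14-week brain and 168 and 176 TPM in 20-week brain. Testis came close behind, with 142 TPM at 14 weeks and 117 and 104 TPM at 20 weeks, and heart, lung and liver followed with means of 8.64, 2.80 and 0.0854 TPM. No neighbours in this order of Penk overlapped, and brain differed from the others by 4.66 ± 0.28 (adjusted p = 2.76e-09). Whole brain held more Penk than hippocampus at P30, at a mean of 208 TPM against 25.4 TPM, values that come from different ages and were not tested.

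Bdnf had 25.3 TPM in 14-week brain and 18.6 and 20.7 TPM in 20-week brain. Lung followed closely with 14.7 TPM at 14 weeks and 13.4 and 16.1 TPM at 20 weeks, below all brain libraries. Heart averaged 3.77 TPM, and liver (0.880 TPM) and testis (0.426 TPM) overlapped. The brain difference of Bdnf was 2.59 ± 0.19 (adjusted p = 2.80e-08).

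Ptgs2 was as high in lung as in brain, with 12.0, 10.6 and 9.19 TPM in brain and 11.6, 10.6 and 12.3 TPM in lung. In testis 1 of the 20-week libraries had 14.7 TPM, while the other was at 0 and the 14-week library at 0.0505 TPM. The brain difference of 2.00 ± 0.59 passed (adjusted p = 0.00720) but was lost with the 20-week libraries alone (adjusted p = 0.0765) and with equal medians (0.0668). Inhba averaged 4.73 TPM in brain and 6.18 TPM in liver, and these overlapped; the 14-week liver library had 13.1 TPM and the 20-week ones 3.40 and 2.06 TPM. Lung and heart overlapped at means of 1.54 and 1.42 TPM, and testis was lowest at 0.144 TPM. The brain difference of Inhba, 1.18 ± 0.37 (adjusted p = 0.0110), was lost with equal medians (adjusted p = 0.324) and without the 14-week brain library (0.0691).

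Cyr61 had 305 TPM in 14-week lung and 66.4 and 97.8 TPM in 20-week lung, and heart followed with 35.9, 30.9 and 37.7 TPM. Liver (mean 6.06 TPM) and brain (mean 5.33 TPM) overlapped, and testis was lowest at 1.15 TPM. Brain was lower than the other tissues by a log2 difference of -1.45 ± 0.36 (adjusted p = 0.00220), which was -2.57 at 14 weeks and -0.89 at 20 weeks. Endothelial and mural markers, all 5 at 1 TPM or more in brain, lung, heart and liver, summed to 168 to 221 TPM in brain, 962 to 1330 TPM in lung, 619 to 725 TPM in heart, 27.6 to 63.1 TPM in liver and 13.6 to 16.7 TPM in testis, and their part in the level of Cyr61 was not tested. Serpinb2 was low throughout, with 1.38, 4.24 and 0.656 TPM in lung, at most 1.01 TPM in any other tissue library, and overlap between all neighbours in its order. Its brain difference of -0.45 ± 0.27 did not pass (adjusted p = 0.147), but with equal medians it did, as -1.27 (adjusted p = 0.000434).

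All 18 granule and processing genes, all 7 opioid genes and all 5 pentraxin genes tested were higher in brain. By smallest p these were led by Pcsk2, the other neuronal prohormone convertase (7.26 ± 0.11, adjusted p = 1.37e-14), Pdyn, the dynorphin precursor (4.72 ± 0.09, adjusted p = 3.58e-14), and the AMPA receptor subunit Gria4 (6.56 ± 0.16, adjusted p = 1.87e-13). Of 7 neurotrophin genes 6 were higher, with Ntrk3 and Ntrk2 at 4.79 ± 0.17 and 6.13 ± 0.37 (adjusted p = 9.87e-12 and 2.91e-09). Plasminogen genes split, with 3 of 9 higher and 5 lower. Serpini1 (neuroserpin) was higher by 6.15 ± 0.18 (adjusted p = 1.68e-12), and Plg (plasminogen itself, made by liver) was lower by -2.90 ± 0.22 (adjusted p = 4.17e-08). Activin genes had 8 of 12 higher and 2 lower, prostanoid genes 3 of 11 higher and 2 lower, CCN genes 2 of 7 higher and 2 lower, and activity genes 11 of 12 higher. Of all genes 45.4% were higher and 28.0% lower, so the prostanoid and CCN lists had a smaller share higher than all genes did. When library medians were made equal, the median difference of all genes moved to -0.48, from 0.34 without, and the list counts changed with it. Of the 18966 genes, 4594 were then higher and 9342 lower. Granule genes then had 17 of 18 higher, opioid genes 6 of 7, pentraxin genes 5 of 5 and neurotrophin genes 3 of 7, while activin genes had 4 higher and 3 lower and prostanoid genes 2 higher and 7 lower.

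Over the 9 means of 5 tissues and 4 hippocampal ages, Vgf, Scg2, Nptx2 and Pcsk1 followed each other most closely. Pearson's r of their log2 values lay between 0.95 and 0.99, as a description over points that share libraries' scaling and a wide gap between nervous and other tissue. Among 15184 genes the closest to Vgf were Frmpd4, Nrsn1 and Sncb (r of 0.999, 0.998 and 0.998), and the closest to Scg2 were Tmem215, Spock3 and Htr5a (r of 0.998 each). Bdnf was nearest to Sstr4, Btbd3 and Vamp2 (r of 0.99, 0.99 and 0.98), Nptx2 to Otud7a, Gpr37 and Gpr61 (0.995, 0.992 and 0.992) and Pcsk1 to Kcnf1, Kcnk12 and Atp6v1g2 (0.99 each). Penk was nearest to Ppm1a, Ttll11 and Pcmt1 (0.97, 0.96 and 0.94), Inhba to Qdpr, Slc25a23 and Nrn1 (0.98, 0.97 and 0.95) and Ptgs2 to Zmat3, Rnf6 and Ahcyl2 (0.95 each). Cyr61 was nearest to Adcy4, Sdpr and the endothelial cadherin Cdh5 (0.99 each).

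Within hippocampus, the CA1 neuropil holds dendrites, axons and glia, and the somata layer holds the cell bodies of pyramidal neurons. With 1 library a side these are values without a replicate check. In both mouse and rat 5 of the 10 members were lower in neuropil, namely Scg2, Nptx2, Bdnf, Vgf and Pcsk1. Over all genes the median log2 ratio was 0.001 in mouse and 0.086 in rat, so a lower value in neuropil was common. The share of all genes lower in both species was not computed. Scg2 had 191 TPM in neuropil and 409 TPM in somata of mouse, and 183 TPM in neuropil and 430 TPM in somata of rat, log2 ratios of -1.10 and -1.23. A ratio of -1 or less was found for 0.970% of genes in mouse and 1.47% in rat.

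Nptx2 had 24.3 TPM in neuropil and 44.6 TPM in somata of mouse, and 44.8 and 82.4 TPM in those of rat (ratios of -0.85 and -0.87). Bdnf had 22.0 TPM in neuropil and 34.9 TPM in somata of mouse, and 12.8 and 21.6 TPM in those of rat (-0.64 and -0.72). Vgf showed ratios of -0.61 and -0.63 and Pcsk1 of -0.34 and -0.75.

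Cyr61 and Inhba pointed to the neuropil. Cyr61 had 9.05 TPM in neuropil and 4.15 TPM in somata of mouse, and 17.0 and 7.95 TPM in those of rat, ratios of 0.96 and 1.00, and a ratio of 1 or more was found for 8.22% of mouse and 8.35% of rat genes. Inhba had 5.13 TPM in neuropil and 4.32 TPM in somata of mouse, and 5.06 and 2.16 TPM in those of rat (0.21 and 0.94). Markers of astrocytes summed to 1974 TPM in neuropil and 730 TPM in somata of mouse, and to 4019 and 1787 TPM in those of rat. Endothelial and mural markers summed to 452 and 175 TPM in mouse and to 466 and 211 TPM in rat, in the same order, and the part of these cells in the ratios was not tested.

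Penk and Ptgs2 differed in direction between the species. Penk had 32.9 TPM in neuropil and 52.6 TPM in somata of mouse, but 38.3 TPM in neuropil and 12.8 TPM in somata of rat, ratios of -0.66 and 1.51. Interneuron markers summed to 435 TPM in neuropil and 545 TPM in somata of mouse and to 416 and 444 TPM in those of rat. Ptgs2 had 9.31 TPM in neuropil and 7.24 TPM in somata of mouse, against 16.5 TPM in neuropil and 19.7 TPM in somata of rat (0.32 and -0.24). Serpinb2 was at 0.0840 TPM in rat neuropil and listed at 0 in the other layer libraries.

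**Figure D5:**
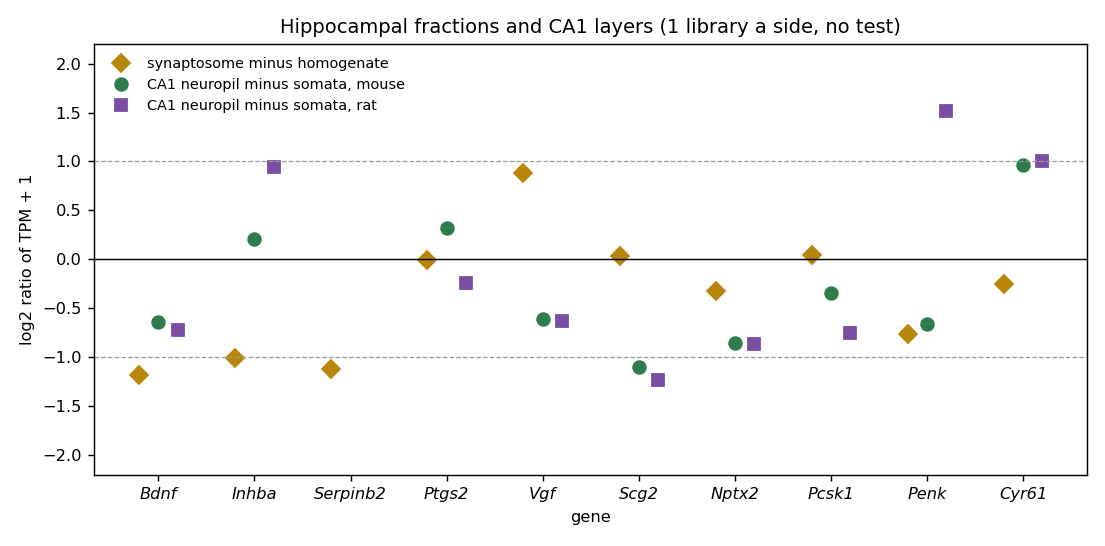
log2 ratio of TPM plus 1 for genes at 1 TPM or more on either side, for synaptosome over homogenate (diamonds) and CA1 neuropil over somata in mouse (circles) and rat (squares), 1 library a side, with dashed lines at 1 and -1. Scg2 lies below -1 in both species, Cyr61 is near 1 in both, and Penk is at -0.66 in mouse and 1.51 in rat.

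In hippocampal synaptosomes, a fraction of pinched-off nerve endings, Vgf was the member that stood highest over homogenate, with 142 TPM against 76.8 TPM (a log2 ratio of 0.88). Bdnf had 14.8 TPM in synaptosomes and 34.7 TPM in homogenate (-1.18), and Inhba 1.18 and 3.37 TPM (-1.004). Serpinb2 was listed at 0 in synaptosomes and had 1.17 TPM in homogenate. A ratio of -1 or less was reached by these 3 genes of 10 and by 14.0% of all genes, and one of 1 or more by 0 of the 10 and by 5.83% of all genes, with a median ratio of -0.29 over all genes. Scg2 (298 TPM in synaptosomes and 290 TPM in homogenate), Pcsk1 (30.0 and 29.1 TPM) and Ptgs2 (22.3 and 22.4 TPM) were nearly level, and Nptx2, Penk and Cyr61 had ratios of -0.33, -0.76 and -0.25. Neuron markers summed to 1343 TPM in synaptosomes and 3284 TPM in homogenate, microglial markers to 702 and 172 TPM and astrocyte markers to 2682 and 819 TPM, and their part in the ratios was not tested.

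In 14-week brain the poly(A)-selected and the rRNA-depleted library were different replicates, 1 each, so library type and replicate cannot be told apart. Vgf had 231 TPM in the poly(A)-selected library and 79.2 TPM in the rRNA-depleted one, and Cyr61 had 13.4 and 2.57 TPM (log2 ratios of 1.53 and 2.01), where 9.07% of genes had a ratio of 1 or more. Pcsk1 had 18.2 TPM in the poly(A)-selected library and 71.9 TPM in the rRNA-depleted one, and Ptgs2 had 4.95 and 12.0 TPM (-1.93 and -1.13), where 15.9% had a ratio of -1 or less.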

How the data were processed

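Gene levels are the TPM values the authors deposited for 28 mouse and 6 rat libraries. Tools listed in the submitters' processing notes are TopHat2 2.0.6, Cufflinks 2.2.1 and CASAVA 1.8.2, with the builds mm9 and rn5. Filters and the use of strand are not given in the sources used here. TPM keep no depth, so no counting intervals are given. Groups and replicate numbers come from the labels, and 1 long-read library of the P30 hippocampus was not analysed here. log2(TPM + 1) was fitted with limma 3.58.1 (R 4.3.3, eBayes with trend, two-sided, Benjamini-Hochberg over all genes tested, threshold 0.05), among genes at 1 TPM or more in at least 2 (cultures, hippocampus) or 3 (tissues) libraries, and the fit was tested on simulated data. Alternatives were a pseudocount of 0.1 TPM, no filter, equal medians, the replicate number as a block, age for tissues, and each library left out. Pairs of 1 library a side have no test. Of each related gene list, up to 3 genes past the threshold with the smallest p are named, and for each member at 5 TPM or more in some group the 3 genes with the highest r. The members and lists were chosen with earlier results of these data known. The circRNA tables were only searched for host symbols. Promoters are RefSeq windows of GRCm38.p6. Tables and figures were made with Python 3.11.15.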

Additional observations from a re-analysis of the deposited data

Results flagged for a closer look

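In CA1, Penk and Ptgs2 had opposite signs in the 2 species, which was not tested, as each layer had 1 library per species. The log2 ratio of neuropil to somata was -0.66 in mouse and 1.51 in rat for Penk. For Ptgs2 it was 0.32 in mouse and -0.24 in rat.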

How the results depend on the processing

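The member calls rested on few libraries. With 2 libraries a group, leaving out 1 assumes that the other varies like the remaining groups. Leave-one-out fits of the cultures gave 0 to 9 members higher, 0 to 259 genes higher and 0 to 122 lower. At P1 against E18 they gave 0 members, 19 to 89 genes higher and 0 to 63 lower; at P10 against P1, 7 members, 1597 to 2574 higher and 1191 to 2846 lower; at P30 against E18, 7 to 8 members higher and 0 to 1 lower. At P30 against P10 they gave 1 to 3 members, 1286 to 3007 genes higher and 808 to 2090 lower, and for brain 7 to 8 members higher and 1 lower.

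With no filter on low values, limma called 72 genes higher and 6 lower in the cultures, and at P1 against E18 it called 0 members and 17 genes higher and 0 lower (1683 higher and 1038 lower at an unadjusted p under 0.05). With equal medians, 3314 genes were lower at P30 against P10, and the difference of Cyr61 there turned to -0.065. At P30 against E18, 7 members were then higher and 1 (Cyr61) lower, with 4002 of all genes higher and 5246 lower. For brain 6 members were higher and 2 lower, with 4594 genes higher and 9342 lower, against 8612 and 5307 genes without equal medians.

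The replicate numbers pair no samples by the labels. Deviations of same-numbered libraries correlated at 0.588 in the cultures, 0.0555 to 0.351 in hippocampus and 0.0159 to 0.0982 in the 20-week tissues. With the replicate block, the cultures had 1493 genes higher and 1805 lower, and Vgf passed (adjusted p = 6.06e-07). With the block, P1 against E18 had 420 genes higher and 237 lower. P30 against P10 had 4 members higher, with 3281 of all genes higher and 2440 lower. P30 against E18 had 8 members higher and 1 lower (Cyr61, adjusted p = 0.0470), with 4902 of all genes higher and 4519 lower.

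Signs also turned in uncalled differences near 0. Pcsk1 at P1 against E18 ranged from -0.34 to 0.33 over the leave-one-out fits (0.044 without E18 replicate 1, 0.33 without P1 replicate 1). At P30 against P10 Scg2 ranged from -0.069 to 0.066 and Pcsk1 from -0.25 to 0.069. Without P30 replicate 1 or P10 replicate 2, Scg2 was 0.047 and 0.066 and Pcsk1 was 0.069 and 0.067. The cause was not tested. The depth is unknown, so values below 1 TPM cannot be told from 0 with a stated precision.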
